A study of Mus musculus with 18 samples.

Results

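RNA-Seq of livers from *Gcn2*-/- mice given asparaginase (ASNase) was set against that of livers from WT mice given the same drug. Of the 37303 genes listed, 9584 had an expression estimate with the status OK in both groups and an FPKM (reads scaled by transcript length and library size) over 3 in at least 1 of them, and these genes are described here. All mice were on the C57BL/6J background, and the *Gcn2*-/- mice carried a homozygous germline deletion, so that GCN2 was missing from every tissue and not from hepatocytes alone. Both groups had 3 mice, which received L-asparaginase (Elspar) intraperitoneally at 3 IU per gram body weight once a day on 8 days and were killed 7.5 h after the last dose. The labels give ages of 8 to 16 weeks in one field and 8 to 12 weeks in another. Of the 3 WT mice 2 were male and of the 3 *Gcn2*-/- mice 1 was male, so sex and genotype cannot be told apart in this comparison. Further groups of 3 serve as reference. WT and *Gcn2*-/- mice given equal volumes of phosphate buffered saline (PBS) each included 1 male, and *Atf4*-/- mice given ASNase, which lacked ATF4 throughout the body, included 2.

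Asparaginase is a leukemia drug that breaks down circulating asparagine and, more slowly, glutamine. GCN2 is a protein kinase that senses uncharged tRNA when amino acids run short and phosphorylates the translation factor eIF2. This slows general protein synthesis but favors translation of ATF4, a transcription factor that turns on genes for amino acid synthesis, transport and stress hormones, a program called the integrated stress response (ISR). The liver is a main site of this response, and it also makes the plasma proteins that rise in inflammation, the enzymes that clear drugs, and bile acids.

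Each group has a single FPKM value per gene, estimated by Cuffdiff from its 3 libraries together, with a lower and an upper bound that serve here as its error. Values of single mice were not used here, so no difference has a replicate check, and no SD, n or p-value accompanies it. The depth behind each value is unknown from FPKM. Upper bounds lay a median of 52.2% above the FPKM for WT ASNase and 52.5% for *Gcn2*-/- ASNase livers. A difference is *Gcn2*-/- ASNase minus WT ASNase on the log2(FPKM + 0.1) scale, on which changes of weakly expressed genes look smaller than they are. Genes were called higher or lower when the difference was over 1.5 in size and the intervals did not overlap. Of the 9584 genes, 161 were listed at 0 in 1 group (119 in *Gcn2*-/-, 42 in WT). They received no difference, as Cuffdiff may list 0 where its estimate failed, although their status was OK. This leaves out more genes listed lower in *Gcn2*-/- livers than higher, and 32 of the 119 belong to the lists of other tissues put aside below.

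Markers of tissues other than liver set the groups apart and were put aside first. The summed FPKM of skeletal muscle markers was 2403 in WT ASNase and 84.0 in *Gcn2*-/- ASNase livers, that of squamous epithelium markers 952 and 254, and that of pancreatic acinar markers 116 and 33.3. These lists took 120 of the 9584 genes, and of the 88 that had a difference, 55 were lower and 3 higher. Among the genes kept, 14 of the genes called lower still followed a list across the 6 groups of the study (Pearson r over 0.95), 9 of them muscle, 4 squamous and 1 pancreas, whereas 0 of the genes called higher did. Their part in the result was not tested. Liver identity was plain in both groups. *Hnf4a*, a master regulator of hepatocytes, had 148 FPKM in WT and 145 in *Gcn2*-/- livers. Of 19 hepatocyte markers with a difference 0 were called, near the 3.84% called over all genes compared. *Alb*, the albumin gene, was among 5 that had no estimate. *Eif2ak4*, the gene of GCN2, had 2.39 FPKM in WT and 2.96 in *Gcn2*-/- livers, and a value summed over all exons does not check a deletion that removes only part of a gene.

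After the lists were put aside 9335 genes were compared. *Gcn2*-/- livers had 169 genes called higher (1.81% of those compared) and 189 called lower (2.02%), or 3.84% in either direction. With the lists left in, 172 of 9423 genes were higher (1.83%) and 244 lower (2.59%). The median difference over all genes compared was 0.055, 54.1% of the genes lay above 0, and 90% lay between -1.25 and 1.21. Genes called higher had a median of 2.68 FPKM in WT ASNase and 22.4 in *Gcn2*-/- ASNase livers. Genes called lower had medians of 31.1 and 4.94 FPKM. Past the fold whatever the intervals were 308 genes on the higher side (3.3%) and 339 on the lower (3.63%). *Ifi35* and *Acmsd* were just inside the fold limit at 1.502, and *Gas1* and *Paqr7* just outside at -1.49.

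**Figure D1:**
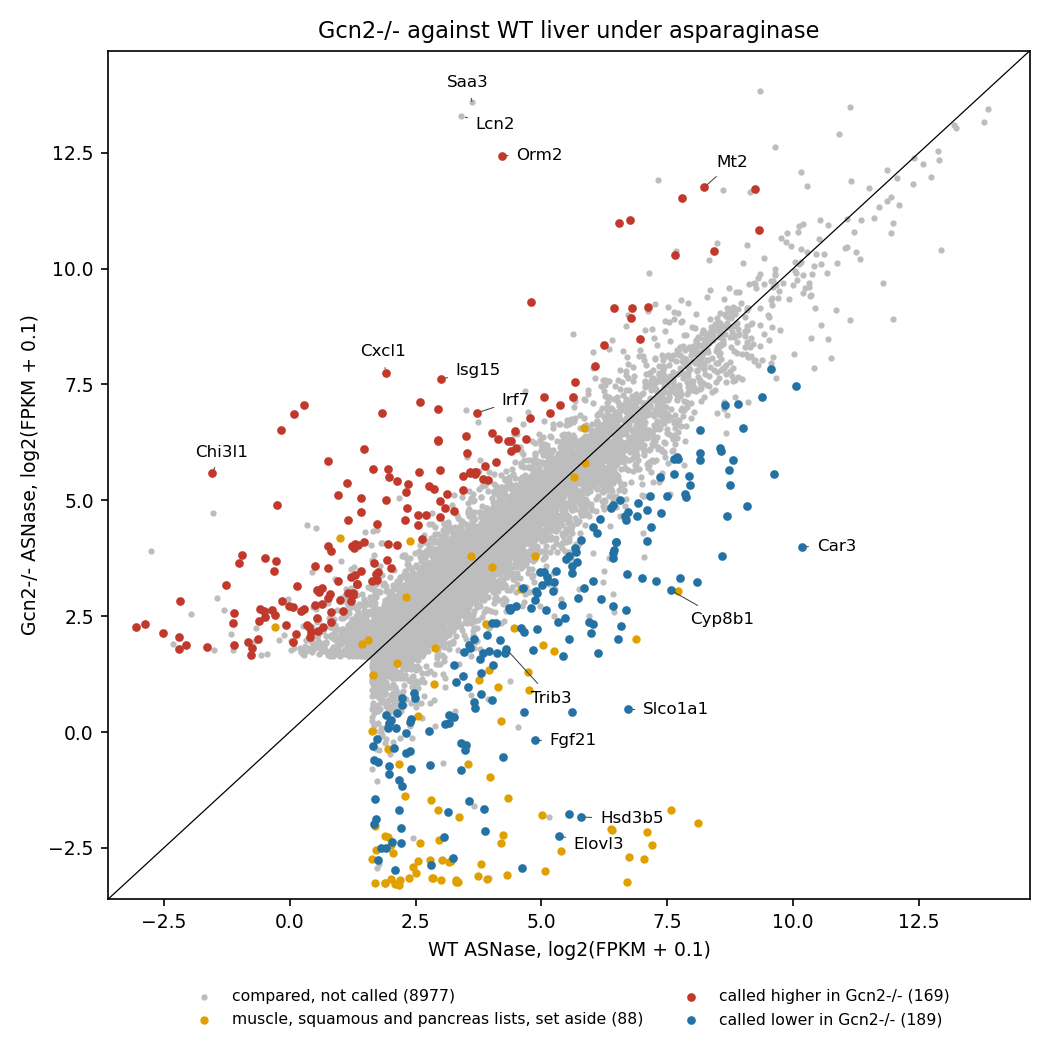
Log2(FPKM + 0.1) in *Gcn2*-/- ASNase livers (vertical axis) against WT ASNase livers (horizontal axis), 1 point per gene, with the line of equality. Red points are the 169 genes called higher and blue points the 189 called lower; orange points are muscle, squamous and pancreas genes put aside, which lie mostly below the line, and *Saa3* and *Lcn2* lie far above it without being called because their intervals are wide.

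Little of this difference was present between the strains under PBS. Between *Gcn2*-/- PBS and WT PBS livers, groups that share no sample with the ASNase comparison and have the same number of males, 59 of 8865 genes were called (0.666%), with 0.372% higher and 0.293% lower. Of these 59 genes, 16 were called in the same direction under ASNase. Of the 169 genes called higher under ASNase, 86 were also above WT under PBS and 5 were called there, and their median difference was 0.004 under PBS against 2.44 under ASNase. The 189 genes called lower behaved alike: of 188 with an estimate under PBS, 100 were below WT, 11 were called, and the median was -0.10 against -2.50. In these genes the change from PBS to ASNase lay mainly in the *Gcn2*-/- livers. Medians there were 2.04 for the genes called higher and -2.17 for those called lower, against -0.40 and 0.12 in WT livers. The ASNase values of both strains entered the choice of genes, so these medians are a description too. The ASNase difference exceeded the PBS difference by more than 1.5 and by more than the joint error of the 4 values in 128 of the genes called higher and in the opposite direction in 138 of those called lower. Over all genes compared, 2.23% and 2.35% did so, and since the members were chosen by their ASNase difference these counts are a description.

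The same genes were set against WT PBS livers, which have the same sex makeup as the *Gcn2*-/- ASNase group but not the same treatment. In that comparison 1.55% of 9243 genes were called higher and 1.94% lower. Of the 169 genes called higher against WT ASNase, 108 were also called higher against WT PBS, and of the 189 called lower, 124 were also called lower. Both comparisons use the *Gcn2*-/- ASNase values.

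GCN2 acts upstream of the ISR, so genes of the ISR and amino acid response come first. Of 29 with a difference, 3 were lower, 1 was higher, and 21 lay below 0, with a median of -0.33 against 0.055 over all genes. *Fgf21* (chr7:45613886-45615490), which encodes a liver hormone of starvation, had 29.3 FPKM (14.6 to 44.0) in WT ASNase and 0.782 (0 to 1.63) in *Gcn2*-/- ASNase livers, a difference of -5.06. Under PBS the order was the other way, 2.14 in WT and 8.32 in *Gcn2*-/- livers. *Fgf21* was thus higher with ASNase in WT livers and lower with it in *Gcn2*-/- livers. *Trib3*, a pseudokinase induced by ATF4 and CHOP, had 19.5 FPKM (11.4 to 27.7) in WT and 3.39 (1.49 to 5.28) in *Gcn2*-/- livers, a difference of -2.49. In *Atf4*-/- ASNase livers *Trib3* reached 150 FPKM, and across the 6 groups it followed the pancreatic acinar markers (r 0.95, 6 points that share libraries), whose summed FPKM was 638 in that group. Whether acinar RNA contributed to *Trib3* was not tested. *Stbd1*, a glycogen-binding protein, fell from 86.1 to 29.6 FPKM.

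*Ddit4* (REDD1), an inhibitor of mTORC1, was the ISR gene that rose, from 14.1 FPKM (7.80 to 20.5) in WT ASNase to 44.0 (22.9 to 65.2) in *Gcn2*-/- ASNase livers. Under PBS it was 8.15 in WT and 2.19 in *Gcn2*-/- livers, so its order turned with the drug. The other ISR genes were not called. *Atf4* itself had 63.1 and 68.1 FPKM, *Asns*, the asparagine synthetase, 8.13 and 5.94, *Ddit3* (CHOP) 18.7 and 15.1, and *Sesn2*, a leucine sensor upstream of mTORC1, 3.71 and 3.14. *Atf5*, a close relative of ATF4, had 210 (101 to 319) and 88.4 (47.1 to 130), a difference of -1.25. None of the 20 cytosolic aminoacyl-tRNA synthetases, 13 serine and folate enzymes or 19 amino acid transporters was called, with medians of 0.33, -0.17 and -0.33. With 3.84% of all genes called, 0 calls in lists this small are near the share over all genes. Of 23 mTORC1 regulators, *Deptor*, an mTOR inhibitor, fell from 33.1 to 10.8 FPKM, and *Ddit4* rose.

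The C/EBP-ATF response element is the letters TGATGNAA, to which ATF4 binds with a C/EBP partner. It was searched on both strands in the RefSeq promoter windows of GRCm38.p6 (250 bases before to 50 after the start of the transcript), which matched 6655 of the 9335 genes. It stood in 7 of 27 ISR genes (*Asns*, *Atf3*, *Chac1*, *Fgf21*, *Nupr1*, *Slc1a4*, *Trib3*) and in 2.16% of all genes matched, and it is shown for the ISR gene with the lowest difference. The capitals mark the element, read on the opposite strand to the gene, 139 to 132 bases before the start, in a window at chr7:45615598-45615653 on the minus strand.
Fgf21: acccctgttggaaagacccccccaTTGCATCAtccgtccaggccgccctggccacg
A match of letters is a description of the sequence and says nothing of binding in these livers.

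The plasma proteins of the acute phase lay far above WT. Of 27 with a difference, 11 were higher, 0 lower and 26 above 0, with a median of 2.99. Under PBS the median of these genes was 0.73. *Orm2* (chr4:63362449-63365878), an alpha-1-acid glycoprotein, had the largest difference of the genes called, 18.5 FPKM (9.26 to 27.7) in WT ASNase against 5535 (633 to 10437) in *Gcn2*-/- ASNase livers, or 8.22. It was higher in *Gcn2*-/- livers under PBS also, at 470 FPKM against 31.6 in WT, and reached 2939 in *Atf4*-/- ASNase livers. *Orm3* rose from 0.783 to 92.1 FPKM, with 1.01 in *Gcn2*-/- livers under PBS. Both genes belong to a family of near copies between which reads could be split. Serum amyloid P (*Apcs*) rose from 108 to 2133 FPKM, the leucine-rich glycoprotein *Lrg1* from 93.3 to 2031, fibrinogen-like *Fgl1* from 223 to 2960, the metalloreductase *Steap4* from 27.6 to 624, and *Cd14*, the endotoxin co-receptor, from 1.59 to 57.1.

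The acute phase genes had wide intervals, with a median half-width of 79.6% over the 27 with a difference in *Gcn2*-/- ASNase livers. *Lcn2*, an iron-scavenging lipocalin, had 10.5 FPKM in WT and 9990 (0 to 21186) in *Gcn2*-/- livers. *Saa3*, a serum amyloid A, had 12.2 and 12427 (0 to 29543). Neither was called, although their differences of 9.88 and 9.98 exceeded that of *Orm2*. The list as a whole was as high in the other knockout, with a median of 3.60 between *Atf4*-/- ASNase and WT ASNase livers, and of 0.01 between *Gcn2*-/- and *Atf4*-/- ASNase livers. *Saa3* was an exception, with 672 FPKM in *Atf4*-/- ASNase livers, although its *Gcn2*-/- interval reached 0. For 7 listed genes, *C3*, *Hpx*, *Hp*, *Fgb*, *Saa1*, *Saa2* and *Serpina3m*, at least 1 group had no estimate.

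Genes that pass on inflammatory signals were higher alongside. Of 15 chemokines with a difference, 7 were higher and 0 lower, with a median of 2.29. *Cxcl1*, a neutrophil attractant, rose from 3.65 FPKM (1.31 to 5.99) in WT ASNase to 215 (101 to 328) in *Gcn2*-/- ASNase livers, a difference of 5.84. *Cxcl13*, which attracts B cells, rose from 0.959 to 116, *Ccl2* and *Ccl7*, which attract monocytes, from 0.418 to 13.9 and from 0.120 to 6.98, and *Cxcl2*, *Ccl3* and *Cxcl9* rose too. Under PBS the median of the chemokines was -0.01. In *Atf4*-/- ASNase livers *Cxcl1* was higher still at 642 FPKM, *Cxcl13* similar at 124, and *Cxcl9*, which interferon gamma induces, was 0.199 against 22.4 in *Gcn2*-/- and 3.21 in WT ASNase livers.

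Of 26 genes of Toll-like receptor, IL-1 and NF-kB signaling, 8 were higher and 1, *Tlr5*, was lower, with a median of 0.82. Among those that rose were the feedback inhibitor *Tnfaip3* (0.734 to 12.8 FPKM), *Nfkbiz* (2.31 to 15.6) and the adhesion molecule *Icam1* (3.83 to 45.2). The cytokines *Il1b* (1.31 to 11.9) and *Il1a* (2.43 to 9.10) rose too. Of 17 genes of IL-6, JAK and STAT3 signaling 4 rose, 9 lay above 0 and 8 below, with a median of 0.68. The receptor genes *Il6ra* and *Il6st* and the kinase genes *Jak1*, *Jak2* and *Tyk2* lay below 0 and were not called. *Socs3*, the inhibitor that STAT3 induces, went from 2.57 FPKM (0.117 to 5.02) to 26.8 (11.9 to 41.7). *Il1r1*, the IL-1 receptor, was counted in this list and went from 7.64 to 78.0. *Lifr*, the leukemia inhibitory factor receptor, fell from 52.0 to 12.7. *A2m*, a protease inhibitor of plasma, rose from 0.0370 to 4.96, and *Chi3l1*, a chitinase-like protein, from 0.244 to 47.8, against 0.567 and 1.77 in *Atf4*-/- ASNase livers. *A2m* and *Chi3l1* were called higher in *Gcn2*-/- than in *Atf4*-/- ASNase livers, a comparison in which 2.27% of 9309 genes were called higher and 0.763% lower.

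Letters of the factors named for these pathways were searched in the same windows. The NF-kB letters (GGGA, any 1 letter, TTTCC), added after the values were seen, stood in 0.376% of all genes matched. Of chemokines with a window they stood in 2 of 11, *Cxcl1* and *Cxcl2*, and thus in 2 of the 5 called. In the list of Toll-like receptor, IL-1 and NF-kB signaling they stood in 1 of 21 genes, *Nfkbia*, and in 0 of the 7 called. The C/EBP letters TTGCNNAA stood in 8.70% of all genes matched, in 15.8% of the genes called higher and in 11.5% of those called lower. Of acute phase genes with a window they stood in 9 of 22, and in 6 of the 9 called, with the near copies *Orm2* and *Orm3* among them. Shown are these pairs of neighboring genes, with capitals for the match on the gene's strand. The windows are chr5:90891150-90891207 for *Cxcl1*, chr5:90903778-90903835 for *Cxcl2*, chr4:63362305-63362360 for *Orm2* and chr4:63356013-63356068 for *Orm3*, all on the plus strand.
Cxcl1: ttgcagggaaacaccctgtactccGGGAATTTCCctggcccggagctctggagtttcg
Cxcl2: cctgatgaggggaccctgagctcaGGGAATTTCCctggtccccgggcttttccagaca
Orm2: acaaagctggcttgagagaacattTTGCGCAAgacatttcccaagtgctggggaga
Orm3: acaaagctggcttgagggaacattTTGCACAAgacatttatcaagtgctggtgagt
The STAT letters TTCNNNGAA stood in 6.81% of all genes matched, in 7 of 22 acute phase genes with a window and in 2 of the 9 called, *Apcs* and *Steap4*.

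**Figure D2:**
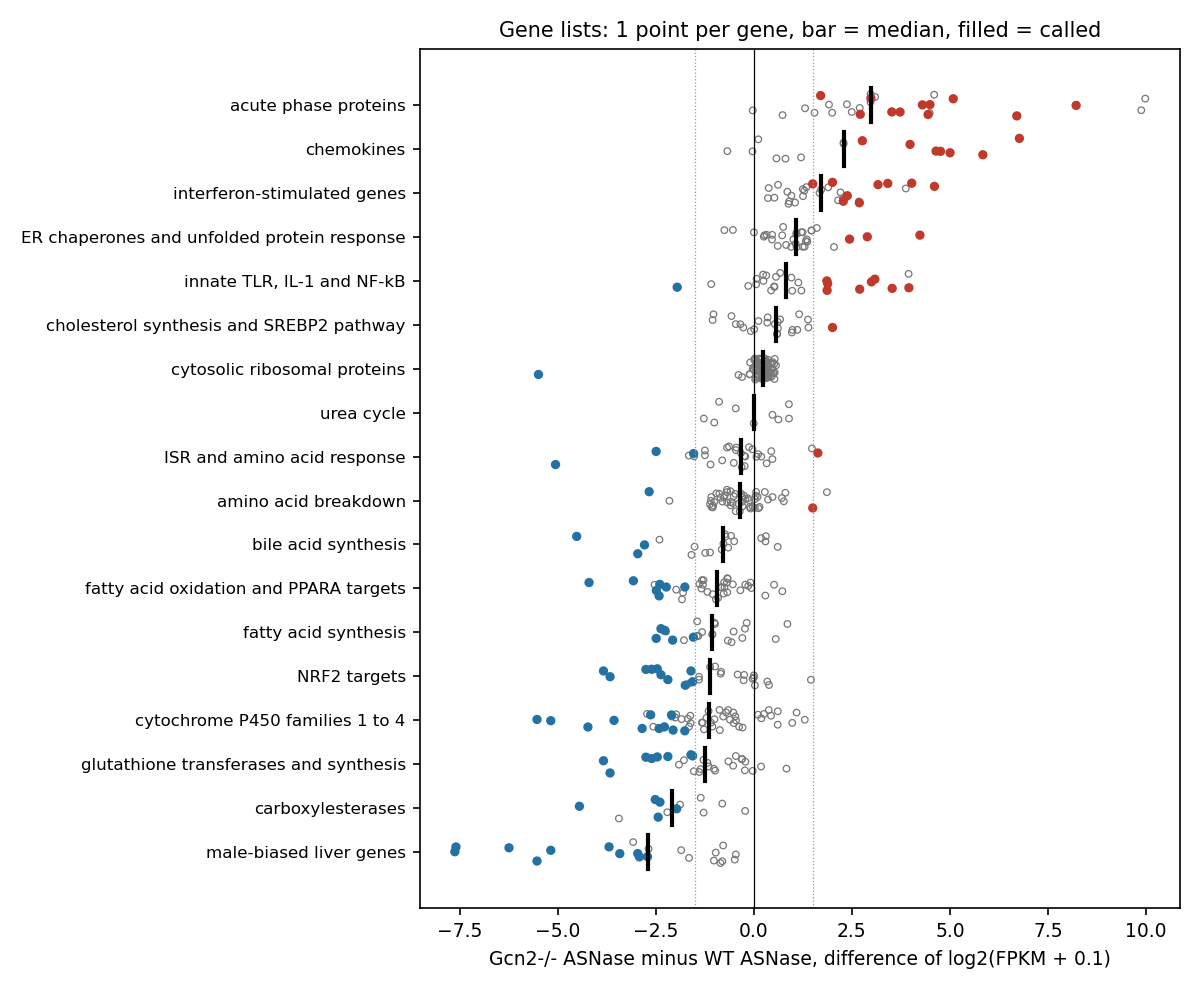
Difference between *Gcn2*-/- ASNase and WT ASNase livers on the log2(FPKM + 0.1) scale for the genes of 18 lists, 1 point per gene, with a bar at the median of each list, filled points for called genes and dotted lines at the fold limit. Acute phase proteins (median 2.99), chemokines (2.29) and interferon-stimulated genes (1.72) lie to the right, carboxylesterases (-2.09) and male-biased genes (-2.71) to the left.

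Interferon-stimulated genes, which cells switch on against viruses, differed in direction between the knockouts. All 31 with a difference lay above 0 in *Gcn2*-/- ASNase livers, 9 were called higher and 0 lower, and the median was 1.72. *Isg15* (chr4:156199424-156200818), a ubiquitin-like modifier, had 7.96 FPKM (3.38 to 12.5) in WT ASNase and 196 (65.3 to 327) in *Gcn2*-/- ASNase livers, a difference of 4.61. It was 20.2 in WT PBS, 12.6 in *Gcn2*-/- PBS and 4.78 in *Atf4*-/- ASNase livers, so the *Gcn2*-/- ASNase value stood alone above the other groups, with an interval that overlapped none of these. *Zbp1*, a sensor of nucleic acids, rose from 3.05 to 51.3 FPKM, *Irf7*, the transcription factor that amplifies interferon production, from 13.1 (3.90 to 22.2) to 118 (25.9 to 210), and the GTPases *Gbp2* and *Gbp3* from 2.13 to 23.7 and from 2.45 to 16.4. *Oas1a*, *Ifit3*, *Mx2* and *Ifi35* were the others called.

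In the other comparisons the median of these genes lay below WT. It was -0.51 under PBS and -0.78 between *Atf4*-/- ASNase and WT ASNase livers, a comparison that shares the WT ASNase values. Between the knockouts under ASNase 17 of the 31 were called higher in *Gcn2*-/- than in *Atf4*-/- livers, with a median of 2.38. *Ifit3*, an antiviral protein that binds foreign RNA, was 23.6 FPKM in *Gcn2*-/- and 0.605 in *Atf4*-/- ASNase livers. The WT ASNase group was itself low for these genes, with a median of -0.89 against WT PBS. Against WT PBS the *Gcn2*-/- ASNase median was 0.90, and 2 of the genes, *Isg15* and *Gbp2*, were called higher.

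The interferon-stimulated response element (GAAA, any 2 letters, GAAA), added after the values were seen, stood in 16 of 23 genes of the list with a window, against 3.20% of all genes matched and 9.65% of the genes called higher. The capitals mark the element and, where copies overlap, the whole stretch they cover. *Isg15* carries 3 copies on its own strand between 78 and 57 bases before its start, and *Ifit3*, *Gbp2* and *Gbp3* carry theirs on the opposite strand. The windows are chr4:156200851-156200920 on the minus strand for *Isg15*, and chr19:34583349-34583440, chr3:142620580-142620637 and chr3:142559975-142560038 on the plus strand for *Ifit3*, *Gbp2* and *Gbp3*.
Isg15: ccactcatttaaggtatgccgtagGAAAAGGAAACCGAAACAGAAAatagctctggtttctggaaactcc
Ifit3: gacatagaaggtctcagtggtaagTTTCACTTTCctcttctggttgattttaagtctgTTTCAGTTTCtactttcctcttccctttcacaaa
Gbp2: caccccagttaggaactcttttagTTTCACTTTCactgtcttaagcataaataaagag
Gbp3: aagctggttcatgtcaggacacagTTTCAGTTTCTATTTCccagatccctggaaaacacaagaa

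**Figure D3:**
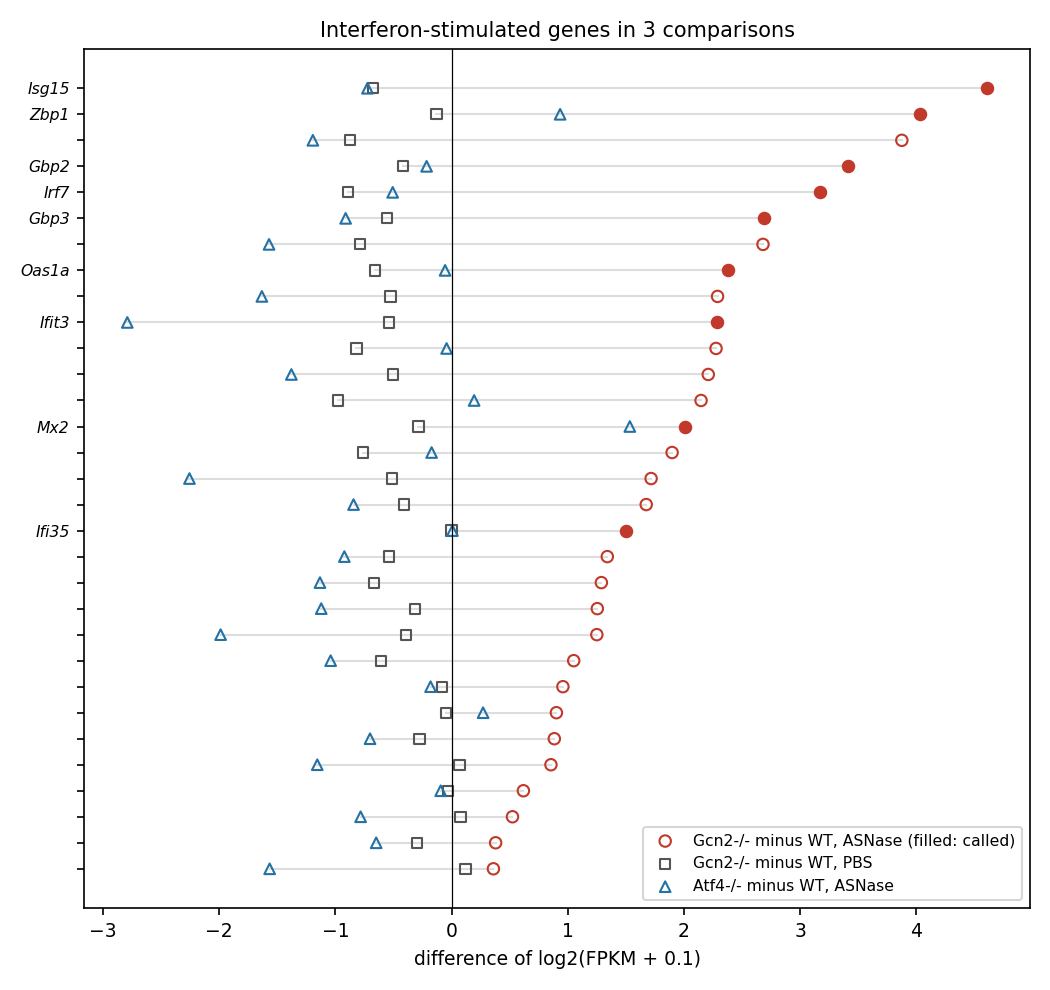
Differences on the log2(FPKM + 0.1) scale for 31 interferon-stimulated genes, 1 row per gene with the 9 called genes named: *Gcn2*-/- minus WT under ASNase (red circles, filled where called), *Gcn2*-/- minus WT under PBS (squares) and *Atf4*-/- minus WT under ASNase (triangles). Every circle lies right of 0, while the medians of the squares and triangles are -0.51 and -0.78.

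Genes of blood cells moved in several directions beside these results. Of 17 Kupffer cell and monocyte markers 4 rose and 0 fell, with a median of 0.43 and summed FPKM of 316 in WT ASNase, 573 in *Gcn2*-/- ASNase and 583 in WT PBS livers. *Marco*, a scavenger receptor of macrophages, rose from 3.45 FPKM (1.56 to 5.34) to 118 (62.4 to 173), *Itgam* from 0.363 to 5.83, *Fcer1g* from 11.8 to 48.3 and *Lyz2* from 41.0 to 134. *Clec4f*, a marker particular to Kupffer cells, was 52.4 (20.6 to 84.2) in WT and 15.9 (0.574 to 31.2) in *Gcn2*-/- livers, and the intervals overlapped. Of the neutrophil markers 4 had a difference: *Il1b* rose, *S100a9* fell from 3.19 to 0.171 FPKM, *Lcn2* and *Prtn3* were not called, and *Ly6g* was listed at 0 in both groups. *Cd74* and *Ighm*, genes of antigen presentation and of B cells, fell from 50.4 to 15.6 and from 4.88 to 0.630. The 4 globin genes fell, as *Hbb-b1* from 69.5 to 3.15 FPKM, and they are near copies between which reads could be split. In whole liver, fewer cells of a type and less RNA per cell cannot be told apart, and the part of these cells in the inflammatory genes was not tested.

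Genes of the endoplasmic reticulum (ER), where secreted proteins are folded, leaned upward. Of 32 chaperone and unfolded protein response genes 30 lay above 0, 3 were higher and 0 lower, with a median of 1.09 under ASNase and 0.02 under PBS. The genes called were *Derl3*, which takes part in ER-associated degradation (0.617 to 13.4 FPKM), and *Sdf2l1* and *Creld2*, which assist folding (11.2 to 83.7 and 16.1 to 87.9). The main chaperones *Hspa5* (BiP) and *Calr* had 211 and 530, and 242 and 616 FPKM, without being called. In *Atf4*-/- ASNase livers the list had a median of 0.83 against WT ASNase.

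Among genes that respond to damage and growth arrest, 4 of 17 p53 and growth arrest genes rose and 0 fell. Over all genes compared 1.81% were called higher. The list was mixed, with 11 genes above 0, 6 below, a median of 0.39 and a lowest difference of -1.105. *Cdkn1a* (p21), which stops the cell cycle, rose from 4.30 FPKM (2.04 to 6.57) to 42.6 (22.3 to 62.8), *Gadd45g* from 7.62 to 126, *Btg2* from 4.86 to 36.1 and *Fas*, a death receptor, from 8.66 to 35.1. The *Atf4*-/- ASNase values were 45.2, 89.7, 32.5 and 20.3 in that order. Of 17 clock genes, *Arntl*, *Nfil3* and *Cry1* rose and *Nr1d1*, a repressor of *Arntl*, fell from 38.1 to 9.33 FPKM. *Arntl* had 0.462 FPKM in WT ASNase and 3.75 in *Gcn2*-/- ASNase livers. The labels give the same interval from last dose to collection, 7.5 h, for all groups, and the hour of day was not compared.

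The drug-clearing enzymes lay lower as a group. Of 51 cytochrome P450 genes of families 1 to 4, 11 were lower, 0 higher and 41 below 0, with a median of -1.15 under ASNase and -0.14 under PBS. *Cyp1a2*, which oxidizes caffeine and many drugs, fell from 249 FPKM to 40.1, *Cyp2c44* from 198 to 47.4 and *Cyp4f14* from 102 to 23.7. *Cyp2c69* fell from 53.1 to 7.28, though WT ASNase livers were themselves below WT PBS livers (220) for this gene. Among the 11 P450 genes called, *Cyp4a12a* and *Cyp4a12b* are also on the male-biased list described below. *Cyp2c69* and *Cyp3a44* are on the female-biased list, and the groups differ in the number of males. All 12 carboxylesterases lay below 0 and 5 fell, with a median of -2.09. *Ces1f* fell from 217 FPKM (96.5 to 338) to 9.85 (4.62 to 15.1), and was 272 and 277 in WT and *Gcn2*-/- livers under PBS. Of 13 carboxylesterases compared between the knockouts under ASNase, 7 were called higher in *Gcn2*-/- than in *Atf4*-/- livers, *Ces1f* being at 0.984 FPKM in the latter, and 1 was called lower, *Ces4a*, at 0.378 against 4.68 FPKM. P450, esterase and transferase genes have near copies, so their reads may be shared out unevenly.

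Glutathione transferases and the targets of NRF2, the factor that answers oxidative and electrophilic stress, showed the same direction. Of 28 genes of glutathione transfer and synthesis 8 fell and 26 lay below 0, with a median of -1.23. *Gsta2* fell from 62.8 to 4.31 FPKM, *Gstm3* from 128 to 9.98, and *Gstm1*, the most abundant of those called, from 1070 (422 to 1717) to 176 (95.8 to 256). *Gclc*, the rate-limiting enzyme of glutathione synthesis, fell from 65.5 to 21.5. Of 27 NRF2 targets 10 fell, 0 rose, 21 lay below 0 and 6 above, with a median of -1.115. Of the 10 that fell, 7 are shared with the glutathione list, and the other 3 were *Me1*, *Aox1* and *Ephx1*. Targets near or above 0 included *Hmox1* (1.456), *Txnrd1* (0.029) and *Srxn1* (0.001). *Nqo1*, a classic NRF2 target, had 6.31 (3.20 to 9.41) and 3.46 (1.43 to 5.49) FPKM and was not called. The antioxidant response element letters TGACNNNGC, added after the values were seen, stood in 6 of 23 NRF2 targets with a window, in 1 of the 8 called, in 12.3% of the genes called lower and in 15.5% of all genes matched. Of 24 glucuronosyl- and sulfotransferases 3 fell, among them *Ugt2b1* of the male-biased list, and 2 rose. *Sult1e1*, the estrogen sulfotransferase, rose from 2.11 FPKM (0.347 to 3.87) to 41.5 (12.8 to 70.3).

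Bile acid genes were lower at several steps. Of 19 genes of synthesis 3 fell and 15 lay below 0, with a median of -0.78. *Cyp8b1* (chr9:121914356-121916305), which sets the share of cholic acid, fell from 190 FPKM (101 to 280) to 8.22 (4.05 to 12.4), a difference of -4.52. It was 201 in WT PBS and 58.2 in *Gcn2*-/- PBS livers, and 1.81 in *Atf4*-/- ASNase livers, so it was already low in *Gcn2*-/- livers without the drug. *Cyp7b1*, of the alternative pathway, fell from 40.1 to 5.06 FPKM and *Akr1c14* from 233 to 33.7. *Cyp7a1*, the rate-limiting enzyme, had 187 and 35.3 FPKM, with intervals that reached 0 in both groups. Of 20 transporters of uptake and bile 3 fell, *Slco1a1* from 106 FPKM to 1.30, *Slc22a7* and *Slc22a30*, and *Slc10a2* rose from 3.09 to 12.4. *Slco1a1* and *Cyp7b1* are also on the list of male-biased genes described below, and the groups differ in the number of males. The main bile salt carriers *Slc10a1* and *Abcb11* had 447 and 231, and 181 and 93.1 FPKM, and were not called.

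Genes that burn fat and genes that make it both lay lower. Of 38 genes of fatty acid oxidation and PPARA targets 7 fell and 35 lay below 0, with a median of -0.94. *Acaa1b*, a peroxisomal thiolase, fell from 541 FPKM (233 to 848) to 29.3 (14.8 to 43.8), and *Ehhadh*, of the same pathway, from 179 to 33.9. Both stood near WT in *Gcn2*-/- livers under PBS, at 584 and 190 FPKM. Of 9 genes of ketone body synthesis *Bdh1* fell from 163 to 45.3 and *Bdh2* from 11.8 to 3.41. Of 23 genes of fatty acid synthesis 5 fell, with a median of -1.06: *Fads2* from 378 to 67.2 FPKM, *Thrsp* from 284 to 58.8, *Elovl5* from 142 to 33.8, *Me1* and *Elovl6*. *Fabp1* and *Scd1* had 7854 and 1358, and 2253 and 477 FPKM, with intervals that overlapped.

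Genes of cholesterol synthesis did not share the lower direction of the fatty acid oxidation and synthesis genes. Of 24 genes 17 lay above 0, against 54.1% of all genes compared, with a median of 0.56. Only 1 was called higher and 0 lower. This was *Sqle*, squalene epoxidase, which rose from 22.3 FPKM to 89.7 (40.5 to 139). WT ASNase livers were below WT PBS livers for this list, with a median of -0.54, and against WT PBS the *Gcn2*-/- ASNase median was -0.04. In *Atf4*-/- ASNase livers the median against WT ASNase was -1.69. Between the knockouts 13 of the 24 were called higher in *Gcn2*-/- than in *Atf4*-/- ASNase livers and 0 lower, with a median of 2.14.

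**Figure D4:**
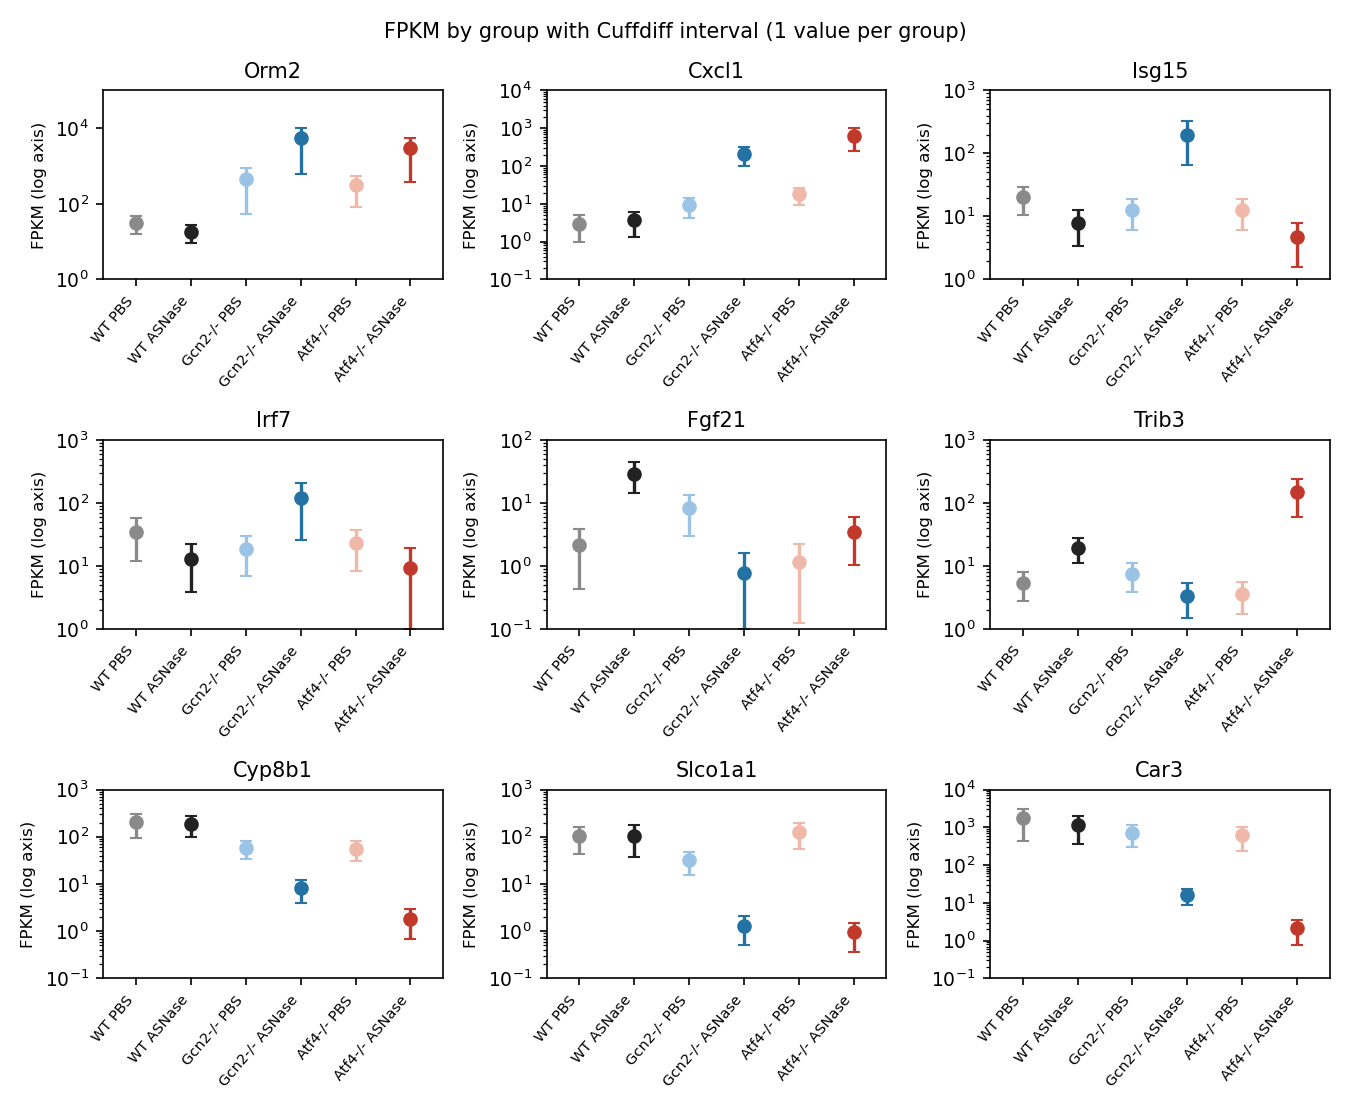
FPKM of 9 genes in the 6 groups of the study on log axes, 1 value per group with its Cuffdiff interval (bars that reach the bottom of a panel extend to 0). *Isg15* and *Irf7* are highest in *Gcn2*-/- ASNase livers, *Orm2* and *Cxcl1* are high in both knockouts under ASNase, *Fgf21* is highest in WT ASNase livers, and *Cyp8b1*, *Slco1a1* and *Car3* are lowest in the knockouts under ASNase.

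Genes with a male bias in mouse liver were lower throughout, beside the difference in the number of males. All 21 with a difference lay below 0 and 10 fell, with a median of -2.71, and 10 more had no estimate in some group. *Hsd3b5*, a steroid reductase of male liver, had 55.2 FPKM (19.6 to 90.8) in WT ASNase and 0.180 (0 to 0.403) in *Gcn2*-/- ASNase livers, the lowest difference of the protein-coding genes called (-7.62). *Elovl3*, a fatty acid elongase, fell from 40.7 to 0.111 FPKM, and *Cyp4a12a* from 48.7 to 1.25. Against WT PBS livers, with the same number of males but not the same treatment, 9 of 19 compared were called lower. The share over all genes of that comparison was 1.94%, and the median of the list was -2.88. *Hsd3b5* had 44.3 FPKM in WT PBS and 13.1 in *Gcn2*-/- PBS livers, groups with 1 male each. In *Atf4*-/- ASNase livers, with as many males as WT ASNase, the median was -3.15 and *Hsd3b5* was at 0.167 FPKM. The Y-linked *Ddx3y* had 11.6 FPKM in WT ASNase and 5.88 in *Gcn2*-/- ASNase livers. Of 26 female-biased genes 5 fell and 1, *Sult1e1*, rose, with a median of -0.31. *Car3*, an abundant carbonic anhydrase of liver, muscle and fat, fell from 1161 FPKM (362 to 1959) to 15.9 (8.89 to 22.9).

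Several groups of basic cell function had few or no calls. Over all genes compared 3.84% were called in either direction, so few or 0 calls in lists of this size are near that share. Among 78 ribosomal protein genes 71 lay above 0 with a median of 0.24, and the 1 call was *Rpl3l*, a member of the muscle list, whereas the median between *Atf4*-/- ASNase and WT ASNase livers was 1.46. The 43 genes of ribosome biogenesis, 37 proteasome genes and 9 urea cycle genes had 0 calls in either direction, with medians of 0.27, 0.35 and 0.00, and 32, 30 and 4 of them lay above 0. *Cps1*, which starts the urea cycle, had 781 and 780 FPKM. Of 84 genes of oxidative phosphorylation 70 lay below 0 with a median of -0.23, and the 2 that fell, *Cox8b* and *Cox7a1*, are members of the muscle list. Of 25 nuclear receptors, through which many drug, bile and lipid genes are regulated, *Nr1d1* was the 1 called, and *Nr1i2* (PXR), *Nr1i3* (CAR), *Nr1h4* (FXR) and *Ppara* had 31.8 and 38.8, 106 and 79.7, 71.3 and 82.8, and 63.7 and 39.8 FPKM in WT and *Gcn2*-/- ASNase livers.

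The genes called were also set beside the *Atf4*-/- ASNase livers. Against the same WT ASNase values, the 169 genes called higher had a median difference of 1.85 in *Atf4*-/- livers, and those called lower, 188 with an estimate, one of -2.94. Compared directly under ASNase, 30 of the 169 were called higher in *Gcn2*-/- than in *Atf4*-/- livers and 1 was called lower. Over all 9309 genes of that comparison, 2.27% were called higher and 0.763% lower. It reuses the *Gcn2*-/- ASNase values by which the genes were chosen, so the counts given here are a description. Of the genes called lower, 8 were lower in *Gcn2*-/- than in *Atf4*-/- livers and 30 were higher. Of the former 30, 7 were genes of the interferon list, and *Ccl2*, *Cxcl9*, *A2m*, *Chi3l1*, *Il1a* and *Sqle* were others. *Ccl2* had 13.9 FPKM (6.87 to 21.0) in *Gcn2*-/- and 2.94 (0.740 to 5.14) in *Atf4*-/- ASNase livers. The 8 that were lower in *Gcn2*-/- livers included *Trib3*, *Cyp7b1* and *Rgs16*, a regulator of G protein signaling, with 4.75 FPKM (2.22 to 7.29) against 39.2 (16.3 to 62.1).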

How the data were processed

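Poly-A RNA of liver was sequenced for 18 mice in 6 groups of 3, with groups taken from the sample labels. The authors built libraries with Illumina reagents, mapped the single-end reads on mm10 by TopHat, built transcripts by Cufflinks and Cuffmerge, and ran Cuffdiff for the expression values. The deposited table holds FPKM values that the authors' Cuffdiff run estimated per gene and group from the 3 libraries together, with interval bounds in FPKM and a status. It holds no counts, and precision was taken from the bounds. Because it has 1 value per group, the planned form of the comparison was a description with no test: differences of log2(FPKM + 0.1), with genes required to have status OK in both groups, FPKM over 3 in either and values above 0, and called when the difference was over 1.5 in size with intervals that did not overlap.

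Members of skeletal muscle, squamous epithelium and pancreatic acinar lists were set aside. Members and gene lists were chosen with earlier results of these data known. Genes named are, among protein-coding genes, the 12 called with the largest differences in each direction, called members of the lists, and up to 4 members per list with the highest FPKM or a role a sentence needs. Other genes named (*Clec4f*, *Nr1i2* and the neutrophil markers, for example) were chosen after their values were seen. Some genes that fall under the rule are not reported here. A list is described by its counts and median, with no set test. Some lists share genes with those set aside, which is said where such a gene was called. Gene positions are from GENCODE release M21 on GRCm38 (mm10), in which 35446 of 37303 identifiers matched. Motifs were searched in RefSeq promoter windows of GRCm38.p6. The interferon, NF-kB and antioxidant letters were added after seeing the data. Python 3.11.15, pandas 2.3.3 and numpy 2.4.6 were used. Alternatives for the pseudocount, FPKM minimum, fold, interval rule, scaling, zeros and gene selection were tried.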

Additional observations from a re-analysis of the deposited data

How the results depend on the processing

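The counts of called genes (169 higher, 189 lower) moved by more than 1.5 times under 2 of 13 alternatives. With FPKM over 10 required, 111 genes were higher among fewer genes compared. Without the condition on intervals, 308 were higher (3.3% of genes) and 339 lower (3.63%). Under the other alternatives, the counts lay between 143 (pseudocount 1) and 216 (combined interval half-widths) higher. The medians of 17 lists were recomputed with a pseudocount of 1, with FPKM over 10 and with median-ratio rescaling of the groups, and none changed sign. The median of all genes, 0.055, was 0.01 with rescaling and -0.001 with no FPKM minimum. Of 154 called genes that the rule selects, 14 lost the call with a pseudocount of 1, 32 with FPKM over 10 and 2 with rescaling, and 0 lost it under the others where they were compared. No paired analysis was possible because the table holds 1 pooled value per group, and for the same reason leaving out single mice or fitting a replicate block was not run. FPKM carries no counts, so what the depth of a library would limit could not be computed, and with intervals reaching about 52.2% to 52.5% of a value only large differences pass.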

Other observations

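Some called genes that had the other order under PBS stood out by their values. *Rgs16* had 17.8 FPKM (8.56 to 27.0) in WT PBS and 95.9 (47.4 to 144) in WT ASNase livers, and 65.7 (37.3 to 94.1) and 4.75 (2.22 to 7.29) in *Gcn2*-/- livers, so that it was higher with the drug in WT and lower with it in *Gcn2*-/- livers. *Rhod*, a small GTPase of endosomes, had the same order, with 14.1 and 137 FPKM in WT and 103 and 17.3 in *Gcn2*-/- livers. *Clec2h*, a C-type lectin, had 1.90 and 4.51 in WT and 20.9 and 0.0906 in *Gcn2*-/- livers. These genes were chosen after their values were seen.

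Other called genes differed in the same direction without the drug. *Tff3*, a trefoil peptide of mucosa, had 2.38 and 5.83 FPKM in WT PBS and ASNase livers and 116 and 48.9 in *Gcn2*-/- livers, and it stayed at 1.08 in *Atf4*-/- ASNase livers. *Gm9781* had 4.15 and 4.68 FPKM in the *Gcn2*-/- groups and at most 0.0282 in the WT groups. *Mt2*, a metallothionein, had 27.0 FPKM under PBS and 300.4 under ASNase in WT livers, and 306 and 3444 in *Gcn2*-/- livers. *H19*, an imprinted noncoding RNA, had 27.2 and 46.6 FPKM in the WT groups and 2.26 and 0.191 in the *Gcn2*-/- groups, and its levels lay near those of the muscle list across the 6 groups (r 0.90, 6 points that share libraries).

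Small RNAs are poorly kept by a poly-A library and short transcripts are hard to quantify by FPKM. Of 99 small RNA genes compared, 11 were called lower and 3 higher, and 8 of the 11 were more than the fold limit higher in *Gcn2*-/- than in WT livers under PBS. The *7SK* RNA, for example, had 13.1 FPKM under PBS and 89.6 under ASNase in WT livers, and 115 and 17.1 in *Gcn2*-/- livers.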
